A study of Drosophila melanogaster with 3 samples.

Results

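The Rab genes of Drosophila melanogaster were examined as targets of CG2120, a predicted C2H2 zinc finger protein. They were taken as the protein coding genes whose symbol is Rab or RabX followed by a number, with or without further letters. This rule found 33 genes among 13968 protein coding genes of the dm6 annotation, and it used no measured value. Chromatin immunoprecipitation followed by sequencing (ChIP-seq) had been done in 1 group, embryos of a transgenic line that stably carries CG2120 with GFP at its C-terminal end, collected 18 to 24 h into development, with 3 biological replicates. Fragments of 200 to 800 bp were made by sonication, and those carrying the fusion protein were collected through its GFP. The sources used here do not say what drives the transgene. Whole embryos were used, so each peak is a mixture of all embryonic cell types, and sites used in few cells cannot be told apart from weak sites used in many. No second group or control list was analysed, so no test between conditions was possible, and every comparison is a description against all protein coding genes.

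Rab proteins are small GTPases that mark membrane compartments. Each cycles between a GTP-bound form, which sits on a membrane through lipid anchors and recruits effectors such as motors and tethers, and a GDP-bound form that a dissociation inhibitor keeps in the cytosol. Exchange factors (GEFs) switch a Rab on and GTPase activating proteins (GAPs) switch it off, and different Rabs serve the secretory route, the endosomes, the lysosome and regulated exocytosis.

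The sequences around the strongest summits at 6 Rab promoters held an exact DRE (DNA replication-related element), a short palindrome typical of Drosophila housekeeping promoters. It was chosen because it was the motif that recurred most at Rab summits apart from the shorter core inside it. Rab2, with a signal of 143, is left out, and the sequences of the 5 with higher peaks are shown. Each is given from 5′ to 3′ on the strand of the Rab gene, within 50 bp of the summit and without transcribed sequence, from the RefSeq release 6 genome (dm6). Capitals mark TATCGATA (DRE) and, elsewhere in a sequence, other motifs that are spelled out with the motif counts: the BEAF-32 core on either strand, an E-box in Rab8 and a GATA match in Rab27.
Rab8, chr3L:19871079-19871138, minus strand: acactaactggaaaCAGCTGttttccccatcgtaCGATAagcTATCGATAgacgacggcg
Rab30, chr2L:7032621-7032720, minus strand: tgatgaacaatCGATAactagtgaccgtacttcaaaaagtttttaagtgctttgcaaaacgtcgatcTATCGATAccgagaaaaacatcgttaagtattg
Rab7, chr3R:23992921-23993007, plus strand: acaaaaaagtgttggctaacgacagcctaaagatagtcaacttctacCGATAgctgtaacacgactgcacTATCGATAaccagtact
Rab40, chrX:12463113-12463172, minus strand: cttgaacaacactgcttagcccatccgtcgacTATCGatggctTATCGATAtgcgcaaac
Rab27, chrX:1476995-1477062, minus strand: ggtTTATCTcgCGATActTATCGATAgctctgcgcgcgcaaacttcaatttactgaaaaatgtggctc

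A pair of summits with none of the motifs is shown beside them, since these promoters had peaks of similar height (348 for Rab26 and 345 for Rab11, against 339 for Rab40). The Rab26 summit lies in an intron, at −386 bp from an alternative TSS, so its stretch is inside the annotated gene. The Rab11 summit lies between genes.
Rab26, chr3L:21321945-21322045, plus strand: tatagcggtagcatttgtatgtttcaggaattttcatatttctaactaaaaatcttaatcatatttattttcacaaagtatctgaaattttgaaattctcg
Rab11, chr3R:21111193-21111293, plus strand: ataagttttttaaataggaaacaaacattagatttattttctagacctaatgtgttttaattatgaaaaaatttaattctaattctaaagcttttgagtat
The GC content was 24.8% at Rab26 and 18.8% at Rab11, and 35.0% to 48.3% in the printed stretches of the DRE promoters. Low GC was not general to Rab summits without a motif, since Rab18 had 46.5% and Rab23 44.6%. Rab35 had 34.7%, just below the range of the DRE stretches. The second summits of Rab8 and Rab40, also without a motif, had 30.7% and 21.8%. The 38 bases kept at the second summit of Rab7 held no motif either and had 42.1%. Whether GC content goes with the motif was not tested.

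The deposited dm6 lists cover the replicates singly and pooled, and an optimal list keeps the 8340 peaks that passed a test of reproducibility. A gene was counted as bound where a summit of the optimal list lay within 500 bp of any of its transcription start sites (TSSs). By this rule 18 of the 33 Rab genes (54.5%) were bound, beside 34.0% of all protein coding genes (4747 genes). The lists hold no read counts, so the depth is unknown and no counting interval can be given.

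The count hardly moved between replicates. Among the 8340 strongest peaks of each replicate, 18, 18 and 17 Rab genes had a promoter summit in replicates 1, 2 and 3, a mean of 17.7 ± 0.577 (SD, n = 3). Over all protein coding genes the same peaks gave 33.6% in replicate 1, 34.3% in replicate 2 and 33.0% in replicate 3. Of the 18 bound Rab genes, 16 were also found in the strongest peaks of every replicate. Rab32 was found in those of 2 replicates and Rab2 in those of 1. The optimal list was itself selected for reproducibility, and this share was not computed over all bound genes, so nothing particular to the Rab genes is read from it. With only optimal peaks found in all 3 replicates, 15 Rab genes (45.5%) remained bound, beside 3812 of all protein coding genes (27.3%). The whole replicate lists, which the labels describe as peaks and background, held 23, 24 and 21 Rab genes (mean 22.7 ± 1.53, SD, n = 3), beside 55.4%, 55.8% and 52.2% of all genes. The whole pooled list held 23 (69.7%), beside 55.2% of all genes.

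**Figure D1:**
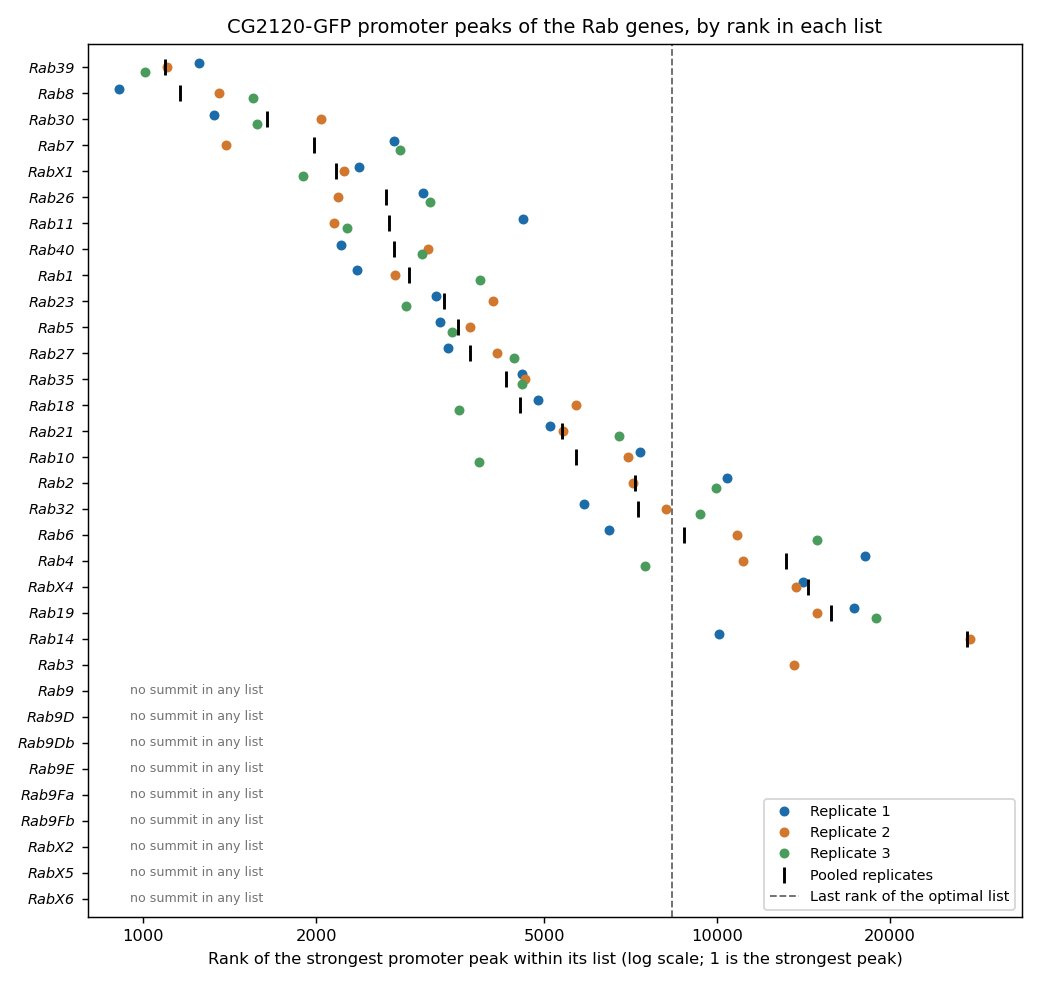
Rank of the strongest peak with a summit within 500 bp of a TSS of each Rab gene (log scale, rank 1 is the strongest peak), in the 3 replicates (points) and in the pooled list (bars), with a dashed line at the last rank of the optimal list, 8340. The 18 bound genes run from Rab39 at rank 1092 to Rab32 at rank 7288, 6 unbound genes have a summit in some list, mostly right of the line, and 9 have no summit in any list.

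The peaks at Rab promoters were of middling height. The highest promoter peak of a bound Rab gene had a median signal of 306 (range 141 to 617), against 317 for all bound genes (quartiles 194 and 557), on the scale of the authors' caller, which has no unit. The median rank was 3120 for the Rab genes and 2984 for all bound genes. None of the 18 reached a signal of 1000, which 477 of all bound genes (10.05%) did, and nothing is read from this count in so few genes. Across the 18 genes the ranks in pairs of replicates were correlated, with Spearman coefficients of 0.860 for replicates 1 and 2, 0.783 for replicates 1 and 3, and 0.880 for replicates 2 and 3. These points share the embryos' line and the peak caller, and the values describe these libraries only. The 18 genes were also picked through the optimal list, which was itself selected for reproducibility between these replicates. No coefficient was computed over all bound genes, so nothing particular to the Rab genes is read from these values.

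Among the Rabs of exocytosis and polarised traffic, 4 of 5 were bound, with a median signal of 305. Rab8 (FBgn0262518, chr3L:19867488-19871078, minus strand), which directs vesicles to the plasma membrane, had the second highest peak of the family, with a signal of 595 and rank 1161 in the optimal list. Its ranks were 907, 1353 and 1554 in replicates 1, 2 and 3, and the summit lay at −12 bp from the TSS (negative is upstream). A separate summit of signal 228 lay in an intron, at −259 bp from a later TSS of the gene. Both annotated TSSs of Rab8 thus had a summit within 500 bp. Rab26 (FBgn0086913, chr3L:21318774-21335027, plus strand), linked in mammals to synaptic and secretory vesicles, had a signal of 348 at rank 2651. Its ranks were 3072, 2188 and 3155 in the replicates. That summit lay in an intron of Rab26, at −386 bp from an alternative TSS that starts 3607 bp into the gene, and neither of the other TSSs had a summit within 500 bp. Rab27 (FBgn0025382, chrX:1473884-1476974, minus strand), a Rab of regulated secretion, had a signal of 262 at rank 3703, at −71 bp. In the replicates its ranks were 3399, 4127 and 4429, and the summits fell within 2 bp of each other. This was the smallest spread of distances from the TSS among the bound Rab genes. Rab10, known in flies for secretion of basement membrane, had a signal of 179 at rank 5685. Rab3, the Rab of synaptic vesicles, was not bound and had a promoter summit only in the whole list of replicate 2, at rank 13603.

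In the secretory and Golgi group 3 of 4 genes were bound, with a median signal of 220. Rab1 (FBgn0285937, chr3R:21266029-21269060, minus strand), which acts between the endoplasmic reticulum and the Golgi, had a signal of 324 at rank 2905, with a summit at −45 bp. Its ranks were 2354, 2745 and 3855 in replicates 1, 2 and 3, all in the upper part of the strongest peaks. Rab18, a Rab of lipid droplets and the endoplasmic reticulum, had a signal of 220 at rank 4537. Rab2, which acts at the Golgi, stood near the end of the optimal list with a signal of 143 at rank 7200. Its peak was among the strongest of replicate 2 only (rank 7128), and its ranks of 10380 in replicate 1 and 9937 in replicate 3 lay beyond them. Rab6, the Rab of transport within and from the Golgi, was just outside. Its pooled peak had a signal of 118 at rank 8735, where the lowest signal of the optimal list was 123, and its ranks were 6479, 10801 and 14917 in the replicates, so that only replicate 1 had it among its strongest peaks.

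Early endosome and recycling Rabs were bound in 4 of 6 cases, with a median signal of 252. Rab11 (FBgn0015790, chr3R:21111408-21116146, plus strand), the Rab of recycling endosomes, had a signal of 345 at rank 2678. The replicates differed for this gene: the ranks were 4580, 2147 and 2267, and the summits lay at −42, −165 and −180 bp. Rab5 (FBgn0014010, chr2L:2359142-2365273, minus strand), the Rab of early endosomes, had a signal of 273 at rank 3540. Its ranks were 3293, 3711 and 3454, so the replicates placed it closely. The summit lay in an intron, at −292 bp from 1 of its 6 TSSs, 1769 bp from the 5′ end of the gene, and no other TSS of Rab5 was bound. Rab35, which acts in endocytic recycling, had a signal of 231, and Rab21, a Rab of early endosomes, had 189. Rab4, the Rab of rapid recycling, was not bound. Its pooled rank was 13180, and it was among the strongest peaks of replicate 3 only (rank 7486, against 18098 in replicate 1 and 11094 in replicate 2). Rab14, a Rab of endosomes and phagosomes, was not bound either, and its weak pooled peak had rank 27192. An optimal summit lay 577 bp from a TSS of Rab14, just beyond the 500 bp limit, where the farthest summit counted was that of Rab26.

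Of the late endosome and lysosome group, Rab7 and Rab32 were bound and Rab9 was not (2 of 3, median signal 285). Rab7 (FBgn0015795, chr3R:23993008-23995452, plus strand), which drives fusion with the lysosome, had a signal of 429 at rank 1985, with a summit at −37 bp. Its ranks were 2732, 1392 and 2797 in the replicates. A weaker summit of signal 126 lay at −6 bp from an internal TSS, in an intron. Rab32, known in flies as lightoid for its part in making eye pigment granules, had the lowest signal of the bound genes, 141. Its summit at +46 bp, in an untranslated exon, was the only one of the family's 21 downstream of the nearest TSS of its gene. Rab9, which acts in retrieval from late endosomes to the Golgi, had no promoter summit in any list, and the nearest optimal summit lay 940 bp from its TSS.

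The last group holds the other and less studied Rabs, with Rab39 and Rab30 among them, so the lysosome and Golgi counts above leave these genes out. Of its 15 genes 5 were bound, with a median signal of 405, and the remaining 10 included 8 of the 9 Rab genes without a promoter summit in any list. Rab39 (FBgn0029959, chrX:7734923-7736756, plus strand), a Rab of lysosomes, had the highest peak of all Rab promoters, with a signal of 617 at rank 1092. It was similarly placed in each replicate, at ranks 1251, 1099 and 1007, and its summit lay at −299 bp, inside an untranslated exon of the neighbour Pdp. Rab30 (FBgn0031882, chr2L:7030493-7032606, minus strand), a Golgi Rab in mammals, had a signal of 486 at rank 1646, at −65 bp. Its ranks were 1331, 2038 and 1578 in the replicates. RabX1 (FBgn0015372, chr2R:23519839-23523613, minus strand) had a signal of 405 at rank 2164, at −81 bp, and ranks of 2377, 2235 and 1902. The close ranks make it one of the steadier peaks, although its summits spread from −158 bp in replicate 1 to −46 bp in replicate 3. Rab40 (FBgn0030391, chrX:12459796-12463112, minus strand), which in mammals joins a GTPase to a ubiquitin ligase adaptor domain, had a signal of 339 at rank 2731, at −10 bp. Its ranks were 2207, 3138 and 3064, and a second summit of signal 181 lay at −214 bp. Rab23 (FBgn0037364, chr3R:5680054-5685434, minus strand), known in flies for a role in planar cell polarity, had a signal of 288 at rank 3335, at −349 bp. Its ranks were 3239, 4071 and 2867 in replicates 1, 2 and 3. The 12 bound genes of highest signal are thus Rab39 to Rab27, and the other 6 (Rab35, Rab18, Rab21, Rab10, Rab2 and Rab32) ran from rank 4288 to rank 7288.

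The unbound genes of that group were Rab19, Rab9D, Rab9Db, Rab9E, Rab9Fa, Rab9Fb, RabX2, RabX4, RabX5 and RabX6. Weak peaks were listed for 2 of them in the pooled list, RabX4 at rank 14380 and Rab19 at rank 15795. Rab19 was in the whole list of every replicate, at ranks 17277, 14906 and 18909, and RabX4 in those of replicates 1 and 2, at ranks 14100 and 13709. The other 8 had no promoter summit in any list. For Rab9E the nearest optimal summit was 32747 bp away, and for RabX2 it was 19717 bp away, while Rab9D and RabX5 had one at 1391 bp and 1360 bp.

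Summits at Rab promoters lay mostly just upstream of the nearest TSS of the gene. The 21 summits had a median position of −65 bp (quartiles −214 and −37), and 20 of them (95.2%) were upstream, beside −84 bp (quartiles −170 and −24) and 82.1% for all 4120 promoter summits. These measures differ: Rab summits were measured from the nearest TSS of the Rab gene, all promoter summits from the nearest TSS of any coding gene. The summits of Rab5 and Rab26 and the second summits of Rab7 and Rab8 lay in introns of their own gene. They count as upstream of an internal TSS only, and lie downstream of the 5′ end of the gene. The strongest summits of Rab23, Rab27, Rab30 and Rab39 and the second summit of Rab40 lay nearer to a neighbour. At Rab23 the distance was −349 bp, against −72 bp from plx, and at Rab39 −299 bp, against +27 bp from Pdp. The medians of the Rab summits in replicates 1, 2 and 3 were −65, −61 and −96 bp, a mean of −74 ± 19.2 bp (SD, n = 3). Whether the Rab summits differ in position from all promoter summits was not tested. For each bound Rab gene, the strongest promoter summit of each whole replicate list was measured from the nearest TSS of the gene. These distances spread over a median of 42.5 bp (range 2 to 149), and in 14 of 18 genes over 100 bp or less. In the 7 bound genes with 2 or more TSSs the nearest TSS may differ between replicates. The spread is thus one of distances and not of genomic positions. Of the 21 summits, 13 lay within 100 bp upstream and 7 lay farther upstream.

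**Figure D2:**
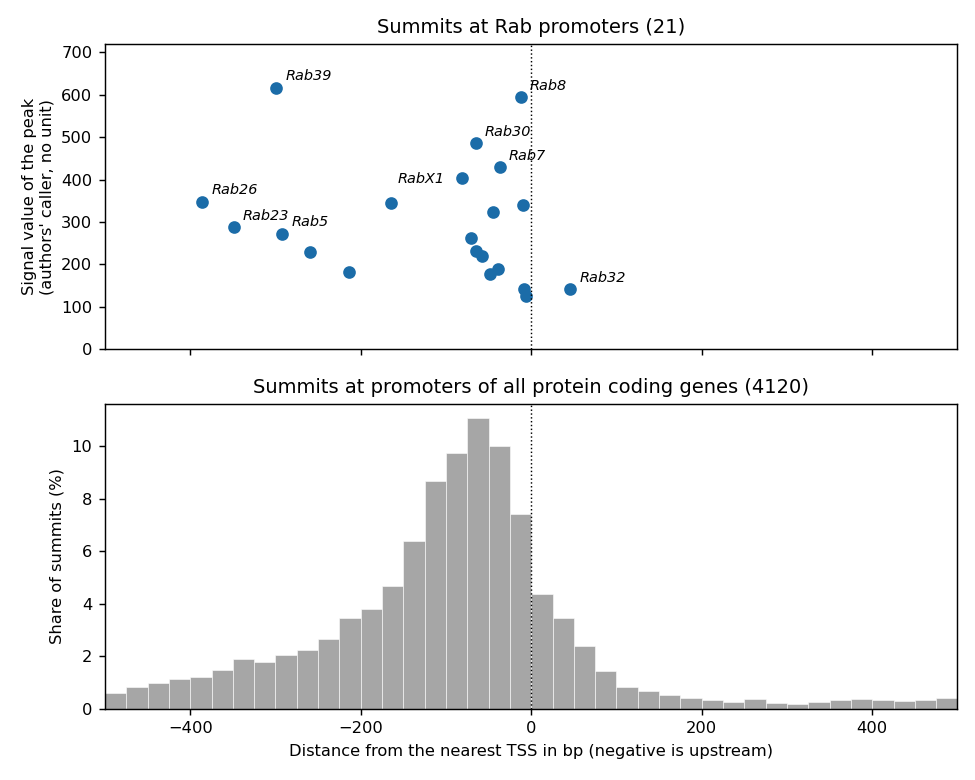
Top, signal value of each of the 21 summits at Rab promoters (authors' caller, no unit) against its distance from the nearest TSS of the gene in bp, with the highest and the most distant named. Bottom, share of the 4120 summits at promoters of all protein coding genes in each bin of distance from the nearest TSS of any coding gene. The top panel uses the TSSs of the Rab gene only. Rab32 at +46 bp is the only point right of the nearest TSS, and Rab26 at −386 bp is the farthest upstream. Points of summits in introns, as at Rab5 and Rab26, are upstream of an internal TSS only.

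In 18 of the 33 Rab genes (54.5%) a protein coding gene on the opposite strand starts within 1000 bp upstream (a head-to-head pair), beside 36.2% of all protein coding genes. Of these 18, 14 were bound, beside 57.8% of all genes with such a neighbour. Both counts take a summit at any TSS of the gene, also at one that is not in the pair. At Rab5 and Rab26 the summit lay at an internal TSS and within 500 bp of no TSS of the neighbour. Of the 15 Rab genes with none, 4 were bound (Rab1, Rab11, Rab32 and Rab35), beside 20.5% of all such genes. Head-to-head genes were thus both more frequent in the family and bound in a larger share of all genes, and the part of this layout in the 54.5% against 34.0% was not tested. The 4 unbound Rab genes with a head-to-head neighbour were Rab4, Rab6, Rab14 and RabX6. The strongest summit also lay within 500 bp of a TSS of another coding gene for 11 of the 18 bound Rab genes, and for 4 of these it was nearer to that gene. Those 4 were Rab23 with plx, a gene of the GAP family (−72 bp from plx), Rab27 with mei-38, which codes for a spindle protein (−18 bp), Rab30 with the splicing factor gene Caper (−50 bp), and Rab39 with Pdp, the gene of pyruvate dehydrogenase phosphatase (+27 bp). The summits nearer to the Rab gene were shared by Rab2 with Mob4, Rab7 with Epp, Rab8 with Usp32, Rab10 with CG17068, Rab21 with Coa7, Rab40 with CG42258, and RabX1 with mi. Which gene of a pair a peak serves was not tested. The summits of the 7 others, Rab1, Rab5, Rab11, Rab18, Rab26, Rab32 and Rab35, lay at no other coding gene. How often a summit is shared over all bound genes was not computed, so the 11 of 18 is not read as particular to the Rab genes. Of all 4747 bound genes, 2920 had a head-to-head neighbour.

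The layout of the genes is given as a description. The median length was 3336 bp for the 18 bound genes, 1435 bp for the 15 unbound ones, and 2165 bp for all protein coding genes. At least 2 TSSs were annotated for 7 bound and 2 unbound Rab genes, and more TSSs give more room to be counted as bound. With only the 5′ end of each gene taken as its TSS, Rab5 and Rab26 were lost and 16 remained (48.5%), beside 31.5% of all protein coding genes. On the X chromosome 7 of 13 Rab genes were bound, beside 36.7% of all genes there, and elsewhere 11 of 20, beside 33.5%.

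The motif that recurred at Rab summits was the DRE, TATCGATA, bound by the factor Dref and close to the sites of the insulator protein BEAF-32. Searched on both strands within 50 bp of the summit, it was found at 6 of 21 Rab summits (28.6%), beside 5.61% of all promoter summits and 2.95% of all 8340 summits. The 6 genes were Rab2, Rab7, Rab8, Rab27, Rab30 and Rab40. At each of them the summit also lay within 500 bp of a TSS of its head-to-head gene, and at Rab27 and Rab30 it was nearer to that gene. The share with a DRE among summits of head-to-head pairs alone was not computed. The centre of the DRE lay 2.5 bp from the summit at Rab8, 3.5 bp at Rab40 and 4.5 bp at Rab27, and 21.5, 23.5 and 40.5 bp from it at Rab30, Rab7 and Rab2. Measured from the TSS, the centre lay at −14.5 bp at Rab8, −13.5 bp at Rab7 and Rab40, −43.5 bp at Rab30, −48.5 bp at Rab2 and −66.5 bp at Rab27. The shorter core CGATA, which every DRE contains, was found at 9 Rab summits (42.9%), beside 27.4% of all promoter summits. The additional genes were Rab10, Rab21 and RabX1. The core promoter element known as motif 7, CATCNCTA, was found at 3 (Rab7, Rab39 and Rab40, 14.3%), beside 4.51% of promoter summits. Motif 1, GGTCACAC, was at 0 Rab summits and 2.82% of all promoter summits.

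Motifs of other factor classes were each found at 0 to 2 Rab summits. TATAAA was found at 1 (Rab32, 4.76%), beside 17.9% of all promoter summits. The GATA forms TGATAA and AGATAA were at 0 and 2 (Rab1 and Rab27), beside 8.01% and 6.07%. The E-boxes CAGCTG and CACGTG were at 1 each (Rab8 and Rab5), beside 5.85% and 0.947%, and GAGAGAG was at 0, beside 1.33%. With 21 summits, 1 summit is 4.76%, so the smaller of these differences rest on 1 or 2 genes. Within 100 bp the DRE was found at 7 (33.3%), beside 10.1% of promoter summits, and TATAAA at 5 (23.8%), beside 33.5%.

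**Figure D3:**
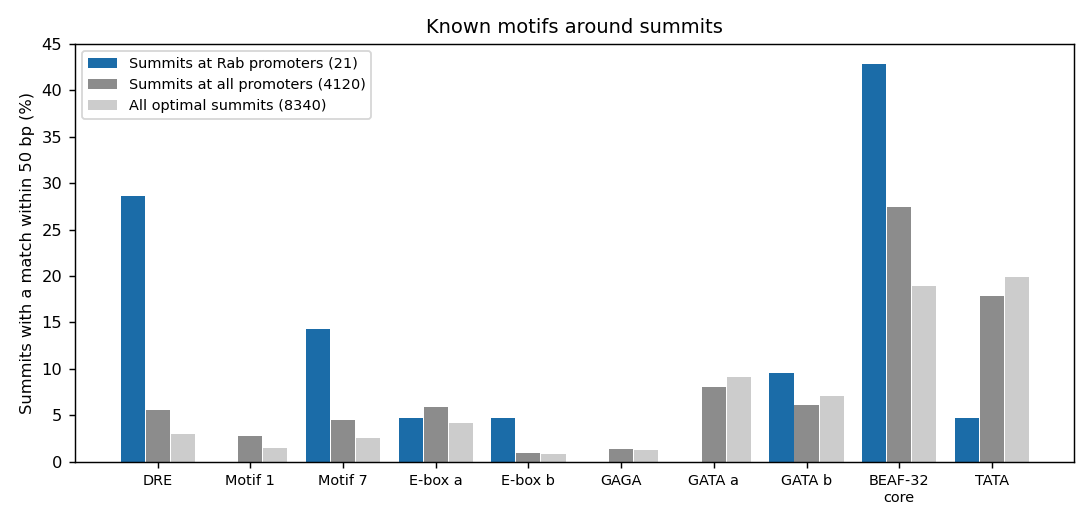
Percent of summits with at least 1 match to each motif within 50 bp on either strand, for the 21 summits at Rab promoters, the 4120 summits at all promoters and all 8340 optimal summits. E-box a and b are CAGCTG and CACGTG, and GATA a and b are TGATAA and AGATAA. The DRE stands at 28.6% of Rab summits beside 5.61% of promoter summits, and the BEAF-32 core, which overlaps it, at 42.9% beside 27.4%.

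The DRE was not limited to bound Rab genes. Within 100 bp of a TSS it was found in 7 of the 18 bound Rab genes (38.9%), the 6 above and Rab35, and in 4 of the 15 unbound ones, Rab6, Rab14, Rab19 and RabX6 (26.7%). Among all genes it was found in 14.7% of bound and 5.30% of unbound ones. Read the other way, 7 of 11 Rab genes with a DRE at a TSS were bound (63.6%), beside 58.7% of the 1185 genes with one. This search around TSSs was chosen after the values at summits were seen.

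The Rab9-like genes of the X chromosome, short genes of 871 to 897 bp, were all without a promoter summit. Reads from copied sequence may not be placed by an aligner, so the uniqueness of each promoter was computed from the genome. The share of 50-base words within 250 bp of the TSS that occur once in the genome was 68.1% for Rab9D, 48.2% for Rab9Db, 45.8% for Rab9E and 34.1% for Rab9Fa. Rab9Fb had 98.5%, and the other 28 Rab genes, bound and unbound, had 100%. With 36-base words the shares were lower, at 63.1%, 37.3%, 31.5% and 24.7% for the first 4 genes, 94.0% for Rab9Fb and 95.9% for RabX2. Over all protein coding genes 417 (2.99%) had less than 80% unique words, and 6 of these (1.44%) were bound. The part of copied sequence in the lack of peaks was not tested, and whether CG2120 is at these 4 promoters cannot be read from the lists.

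**Figure D4:**
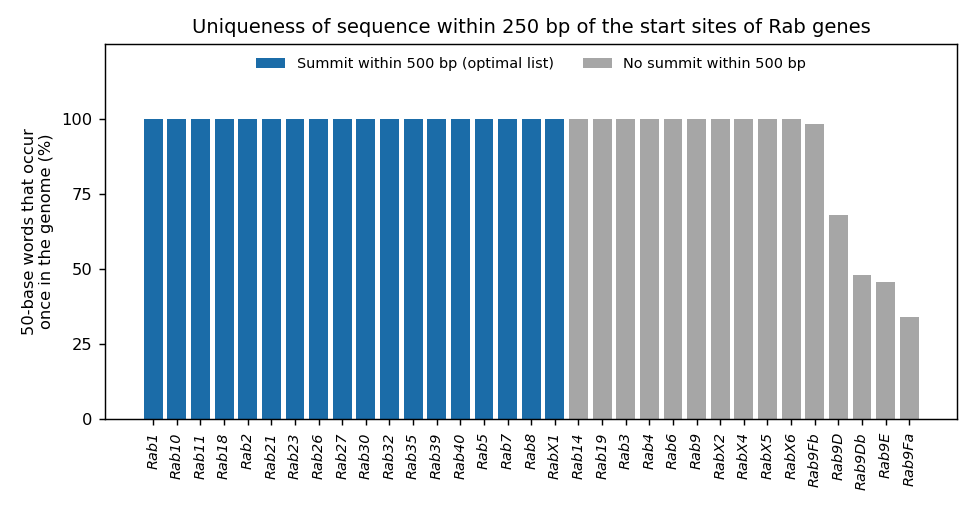
Percent of 50-base words within 250 bp of the TSSs that occur once in the genome, for the 18 bound and the 15 unbound Rab genes. All bound genes stand at 100%, and Rab9D, Rab9Db, Rab9E and Rab9Fa stand between 68.1% and 34.1%.

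Of the other genes of the Rab cycle 34 of 47 (72.3%) were bound, with a median signal of 341, beside 34.0% of all genes. The lists were written from textbook knowledge, but with earlier results of these data known. The GAP gene plx is counted here through the same summit as Rab23. All 4 genes for attaching the lipid and for recycling the GDP form were bound in the optimal list and in the strongest peaks of every replicate. RabGGTa and RabGGTb, the subunits of the Rab geranylgeranyl transferase, had signals of 494 and 482. Rep, the escort protein that presents Rabs to this enzyme, had 274, and Gdi, the dissociation inhibitor, had 225.

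Of the 12 GEF genes 9 were bound (9.33 ± 0.577 over the replicates, SD, n = 3). Mon1 and Ccz1, which together activate Rab7, had signals of 1047 and 458, so that Mon1 stood above every Rab gene. Rabex-5, a GEF of Rab5, had 439. Rab3-GEF, ca and pcs were not bound. Of the 8 GAP genes 7 were bound, led by Rab3GAP1, a subunit of the complex named for Rab3, at 1056, with GAPcenA at 361, sky, a synaptic GAP, at 344 and Evi5, a GAP of Rab11, at 329. Only wkd was unbound there, and it was among the strongest peaks of 1 replicate.

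Effectors and tethers were bound in 14 of 23 cases (60.9%, median signal 351). Rbsn-5, an effector of Rab5 on early endosomes, had the highest promoter peak of the pathway, 1522. The myosin V gene didum had 987, Vps15, a subunit of the endosomal lipid kinase complex, had 672, and Sec15, the exocyst subunit that binds Rab11, had 557. Exo70, GM130 and Lrrk were among the unbound, and Exo70 was in the strongest peaks of 2 replicates.

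Genes of other small GTPase families were set beside the Rab genes. Arf and Arl genes, which act in vesicle coats and Golgi tethering, were bound in 9 of 12 cases, with Arl1 at 1420, Arl5 at 559, Arl8 at 352 and Sar1 at 232, and with Arf4, Arf6 and Arl6 unbound. Ras genes were bound in 7 of 10, with Ras85D at 691, Rheb at 525, Rap1 at 351 and Ric at 318, and with Rgk1, Rgk2 and Rgk3 unbound. The median signal was 228 for the bound Arf and Arl genes and 318 for the bound Ras genes. Neither count was tested against the Rab genes.

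**Figure D5:**
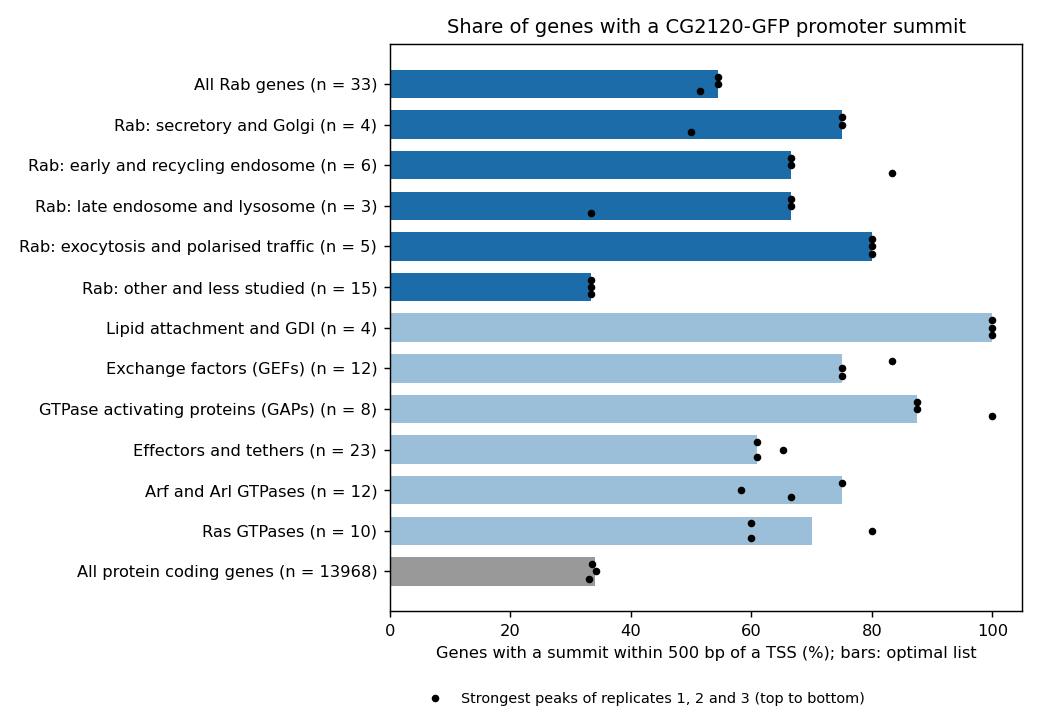
Percent of genes with an optimal summit within 500 bp of a TSS (bars) and the same in the strongest peaks of replicates 1, 2 and 3 (points), for the Rab genes and their role groups, the other genes of the Rab pathway, the Arf, Arl and Ras GTPases and all protein coding genes. The Rab genes stand at 54.5%, with the exocytosis group (4 of 5) highest among them and the less studied Rabs (5 of 15) lowest, and all protein coding genes stand at 34.0%.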

How the data were processed

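The authors deposited narrowPeak lists in builds dm6 and dm3, made per the labels from an immunoprecipitation against GFP of 3 replicates. In dm6 the replicates' lists hold 30000, 30000 and 27353 peaks, the pooled list 30000 and the optimal list 8340. The optimal list was thresholded by irreproducible discovery rate from pooled replicates, per the files' names. For this processing, aligner and peak caller: not given in the sources used here. Depth is unknown. The signal value of each peak is the authors' caller's own and is not scaled between lists, so ranks were used within each list. Values were given for optimal peaks and, at Rab6 only, for its peak in the pooled list. The deposited −log10 q value of a peak stood at its highest, 4.14, in 6897 optimal peaks and was not used for ranking.

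The dm6 lists were read with Python 3.11.15, pandas 2.3.3 and numpy 2.4.6, and drawn with matplotlib 3.10.9. Genes and 19275 distinct TSSs came from Ensembl release 115 on 7 arms. Sequence came from RefSeq release 6, where 30565 of 30618 annotated start codons read ATG. The dm3 lists were not used. The uniqueness count was tested on simulated sequence. Further letters in a symbol were taken as any number of letters. All 33 Rab genes were named, with full values for the 12 bound ones of highest signal; of other lists, the 4 highest bound and up to 3 unbound genes in alphabetical order, and 2 listed symbols, Rerg and Diras, were not matched. One further gene that this rule names and 1 further gene list are not reported here. The genes, lists and motifs were chosen with earlier results of these data known. Replicates share 1 transgenic line, so their SD covers separate samples of it only. Alternatives were promoter windows of 200 and 1000 bp, the stronger 4170 peaks, peaks found in all 3 replicates, each replicate left out, any base of the peak, the 5′ end only, at most 1 further letter, and other numbers of replicate peaks.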

Additional observations from a re-analysis of the deposited data

How the results depend on the processing

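The count of 18 bound Rab genes lay between 12 and 20 under every alternative run: 14 with a window of 200 bp (Rab5, Rab23, Rab26 and Rab39 lost), 20 with 1000 bp (Rab9 and Rab14 gained), 12 in the stronger 4170 peaks, 15 with peaks found in all 3 replicates, 19 with any base of the peak, 16 with the 5′ end only and 18 of 30 genes (60.0%) with at most 1 further letter. The optimal list was not called again for leaving out a replicate. Its peaks were kept where the strongest peaks of both remaining replicates had a summit within 100 bp. This added filter gave 15 to 16 Rab genes and 3991 to 4133 of all genes (28.6% to 29.6%). Rab2 was lost in each case, Rab32 without replicates 1 and 2, and Rab11 without replicates 2 and 3. Over all protein coding genes the stronger 4170 peaks left 3051 bound (21.8%, beside 36.4% of Rab genes), against 4747 in the whole list. The share of Rab genes was above that of all genes in each of these settings. Per replicate, the mean was 14.0 Rab genes in the top 5000 peaks and 22.7 in whole lists. The share of all genes in the top 5000 peaks was not computed. The median summit position was −45 bp with a window of 200 bp and −65 bp with 1000 bp, since a narrower window leaves out distant summits. Within 100 bp, motif 7 was found at 5 Rab summits (23.8%, beside 8.52% of all promoter summits), CAGCTG at 3 (14.3%, beside 13.0%), TGATAA at 2 (9.52%, beside 16.0%), TATAAA at 5 (23.8%, beside 33.5%) and the BEAF-32 core at 13 (61.9%, beside 44.1%). No paired analysis was possible because there is 1 group. Peak lists without reads limit what can be said of genes outside the lists: a missing peak is not absence of binding.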
